A study of Mus musculus with 16 samples.

Results

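Red cell RNA was followed through 16 mouse liver libraries by 6 erythroid genes: Alas2, Hba-a1, Hba-a2, Hbb-bs, Hbb-bt and Slc4a1. They are 6 of the 47729 genes in the deposited count files, of which 29481 had at least 1 read. They were found by symbol, but the set and the question asked of it were chosen by their levels and genotype differences in these same libraries, so every value below describes these libraries and none is independent support. The libraries are endothelial cells (ECs), hepatic stellate cells (HSCs), Kupffer cells and hepatocytes from adult livers without injury, with 2 libraries of each genotype label per cell type. The label KO stands for mice with floxed Zeb2 alleles and an endothelial, tamoxifen-inducible Cre (Cdh5-CreERT2), and WT for littermates without Cre. All mice, controls included, received tamoxifen at 2 mg per day for 5 days, and RNA was taken 2 weeks later. The methods give males of 8 weeks. Cre activity is thus directed to the endothelium, and in HSCs, Kupffer cells and hepatocytes the label names the genotype of the mouse, not a deletion in the sequenced cell. The labels do not say whether libraries of different cell types came from the same animal. The methods describe isolating the cell types together. Some library numbers are neighbours under 1 label, such as 38 (ECs), 39 (Kupffer cells) and 40 (HSCs), all WT. Shared animals are therefore possible, and the fits took the libraries as independent. The p-values measure only the spread between these libraries.

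Alas2 (5-aminolevulinate synthase 2) makes the first committed heme precursor in erythroid cells, where its RNA accumulates together with that of alpha globin (Hba-a1, Hba-a2) and beta globin (Hbb-bs, Hbb-bt), the protein chains of adult hemoglobin. Other cells, hepatocytes above all, use the housekeeping enzyme Alas1 for the same step. Slc4a1 encodes band 3, the anion exchanger of the red cell membrane. Reticulocytes, the youngest circulating red cells, still hold globin RNA, and in the liver Kupffer cells take up old red cells and recycle their heme iron. The hepatocytes were separated by centrifugation before red cells were lysed in the remaining fraction, from which HSCs were sorted by UV autofluorescence, Kupffer cells by F4/80 and ECs by a pan-endothelial antigen.

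The upstream sequences of the genes are shown first. The 3 globin genes with more than 3 reads in every library but 1 rose and fell between libraries in much the same order. Alas2 parted from them in hepatocytes. Whether the upstream sequences bear on this was not tested. Alas2 lies on the X chromosome at 150547375 to 150570638 (GRCm38, plus strand). The alpha globin genes lie on chromosome 11, Hba-a1 at 32283511 to 32284465 and Hba-a2 at 32296489 to 32297298, both on the plus strand. The beta globin genes lie on chromosome 7, Hbb-bs at 103826534 to 103828096 and Hbb-bt at 103812524 to 103813996, both on the minus strand. Slc4a1 spans 102348824 to 102366203 of chromosome 11 on the minus strand. Promoter sequences from RefSeq (GRCm38.p6) were matched for 5 of the 6 members; Slc4a1 was not matched. In the lines below, read 5′ to 3′ on the gene's own strand, the window ends before the first annotated transcript base, and capitals mark 3 motifs on either strand: the core that GATA factors bind, searched as GATAA; the CAAT box, searched as CCAAT; and a TATA-like motif, searched as ATATAA. The windows are chrX:150547167-150547374, chr11:32296242-32296488 and chr7:103813997-103814173.
Alas2: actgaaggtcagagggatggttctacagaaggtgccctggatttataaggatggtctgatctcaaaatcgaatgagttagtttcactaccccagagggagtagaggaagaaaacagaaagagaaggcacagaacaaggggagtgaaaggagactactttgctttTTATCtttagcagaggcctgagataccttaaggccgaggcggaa
Hba-a2: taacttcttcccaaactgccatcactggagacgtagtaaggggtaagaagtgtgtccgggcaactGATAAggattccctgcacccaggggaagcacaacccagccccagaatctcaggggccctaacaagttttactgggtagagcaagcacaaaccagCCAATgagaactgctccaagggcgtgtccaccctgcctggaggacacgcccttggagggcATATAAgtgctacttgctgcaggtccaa
Hbb-bt: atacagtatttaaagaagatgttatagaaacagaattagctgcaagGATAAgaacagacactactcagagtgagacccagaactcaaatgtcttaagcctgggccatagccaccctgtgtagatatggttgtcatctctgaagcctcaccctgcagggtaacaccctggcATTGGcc
In the 250 bases before the RefSeq start, all 4 globin genes held all 3 motifs. Alas2 held 1 GATA core, on its reverse strand 86 bases before its start, and neither of the other motifs. Of 32851 RefSeq promoter windows of this length, 22.6% held the GATA core, 33.8% the CAAT box, 9.10% the TATA-like motif and 1.23% all 3. Hbb-bt held 3 CAAT box matches, of which 2 adjoin on opposite strands. A match describes letters only; no binding was measured.

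The globin genes are near copies of each other, which limits what their counts can tell. The 2 alpha coding sequences, of 429 bases, differed at 1 base, C381T with Hba-a1 first and counting from the first base of the start codon. The upstream sequences of the alpha pair were the same at 247 of 247 aligned bases. The 2 beta coding sequences, of 444 bases, also differed at 1 base, C417T with Hbb-bs first. Of the distinct stretches of 50 bases in Hba-a2 transcripts, 89.3% also occurred in Hba-a1, and 72.3% the other way round; for Hbb-bs and Hbb-bt the shares were 53.2% and 58.3%. The counting tool set aside reads without a unique alignment, 24.8% to 30.1% of its tally in the 12 libraries of sorted cells and 38.2% to 47.9% in the 4 hepatocyte libraries. The part of this difference in the globin levels was not tested. The split within each pair is therefore uncertain, and summed globin reads are a lower count. Hba-a2 had 0 to 3 reads in every library, at or under the floor of 3 reads (0.191 to 0.233 CPM, reads of a gene per 1000000 reads on genes), while Hba-a1 had up to 275 CPM. For Alas2, 311 of 2403 exon bases overlap exons of Apex2, a DNA repair gene on the opposite strand.

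Total reads on genes ran from 12872706 to 15690506 per library. CPM below is relative to these totals; intervals cover counting error only. In bulk libraries, fewer cells of a type and less RNA per cell cannot be told apart. Zeb2 itself read 106 and 106 CPM in ECs labelled WT and 199 and 130 CPM in those labelled KO; only 1 exon is floxed, so a whole-gene count does not check the deletion. Marker levels are the median over 10 genes of each gene's percent of its mean WT level in the cell type it marks. Each cell type carried its own markers at the highest level. Hepatocyte markers, however, stood at 11.1% and 23.0% in the EC libraries labelled WT, against 2.65% and 1.95% in those labelled KO. They stood at 3.05% and 7.05% against 0.549% and 1.22% in HSCs.

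Globin RNA was highest in Kupffer cells and lowest in hepatocytes. Summed over the 4 globin genes, it averaged 420 ± 233 CPM in Kupffer cells, 143 ± 79.1 CPM in ECs, 97.0 ± 120 CPM in HSCs and 6.37 ± 1.99 CPM in hepatocytes (SD, n = 4 libraries each). In Kupffer cells the libraries labelled WT held 705 and 186 CPM and those labelled KO 281 and 508 CPM. The groups overlapped fully, with both the highest and the lowest Kupffer cell library under the WT label.

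In ECs the globin sum was 88.5 and 257 CPM under the WT label and 91.1 and 135 CPM under the KO label. Here too the KO values lay between the WT values. In HSCs it was 269 and 86.8 CPM under the WT label and 25.3 and 6.85 CPM under the KO label. Both KO libraries thus lay below both WT libraries, as they did for 19.3% of genes tested in HSCs.

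In hepatocytes it was 7.46 and 4.57 CPM under the WT label and 4.84 and 8.63 CPM under the KO label, which overlap. In the order of means, neighbouring cell types had overlapping ranges, the lowest HSC library (6.85 CPM) lying below the highest hepatocyte library (8.63 CPM). All Kupffer cell and EC libraries lay above all hepatocyte libraries, and the Kupffer cell mean was 65.9 times the hepatocyte mean.

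**Figure D1:**
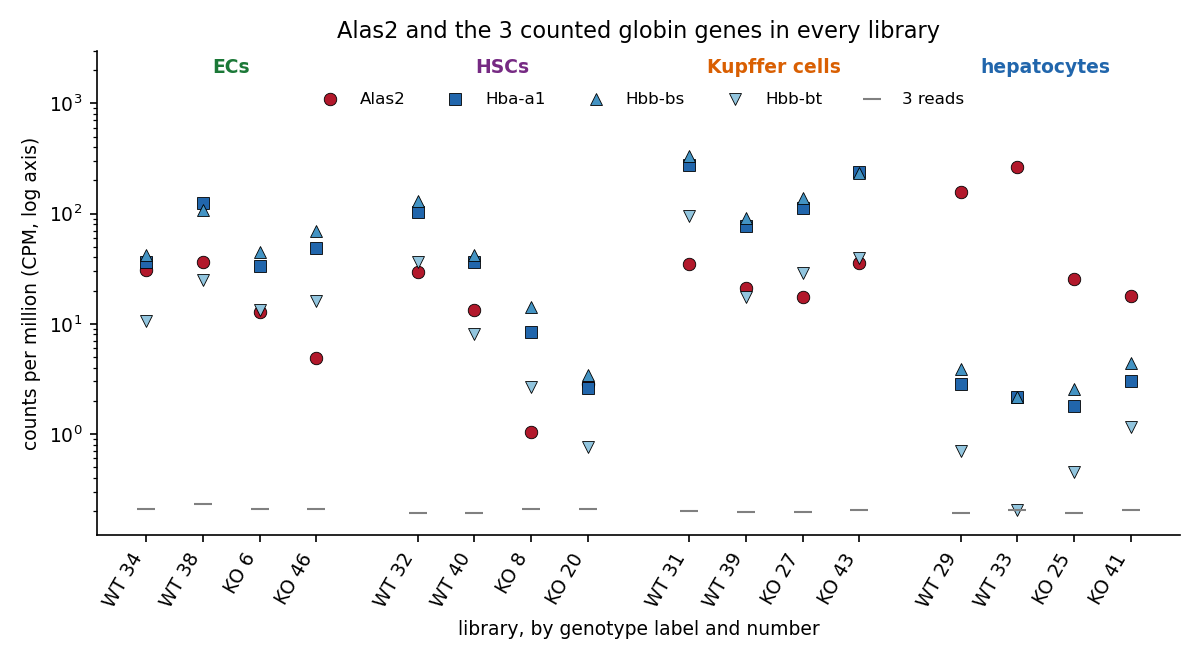
CPM (log axis) of Alas2 and the 3 globin genes with more than 3 reads in every library but 1, by library, with a dash at the level of 3 reads. Alas2 lies above every globin gene in the 4 hepatocyte libraries and below Hbb-bs in the 12 other libraries.

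The globin genes were read in every cell type. Hbb-bs, the larger of the beta counts, read 41.7 and 109 CPM (WT) and 44.6 and 69.8 CPM (KO) in ECs. In HSCs it read 129 and 42.2 CPM (WT) and 14.2 and 3.46 CPM (KO). In Kupffer cells it read 335 and 90.4 CPM (WT) and 140 and 232 CPM (KO), and in hepatocytes 3.89 and 2.18 CPM (WT) and 2.58 and 4.45 CPM (KO). Its groups were apart in HSCs, with KO below WT as for 19.3% of genes tested there, and overlapped in the other cell types.

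Hba-a1 read 36.2 and 124 CPM (WT) and 33.1 and 49.0 CPM (KO) in ECs, and 104 and 36.6 CPM (WT) and 8.43 and 2.63 CPM (KO) in HSCs. In Kupffer cells it read 275 and 77.8 CPM (WT) and 112 and 237 CPM (KO), and in hepatocytes 2.87 and 2.18 CPM (WT) and 1.81 and 3.03 CPM (KO). Hbb-bt, with the fewest reads of these 3, ranged from 10.6 to 25.0 CPM in ECs, 0.761 to 36.3 CPM in HSCs, 17.5 to 94.4 CPM in Kupffer cells and 0.205 to 1.15 CPM in hepatocytes. The lowest of these, in a hepatocyte library labelled WT, rests on 3 reads.

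Alpha reads per beta read ranged from 0.50 to 0.927 over all 16 libraries, while the globin sums spanned 4.57 to 705 CPM. Within Kupffer cells the ratios of libraries 31 and 43 were 0.640 (95% interval 0.615 to 0.666) and 0.873 (0.834 to 0.913), so they differed beyond counting error. In ECs those of libraries 38 and 6 were 0.927 (0.865 to 0.993) and 0.572 (0.510 to 0.641), also apart. In hepatocytes the 4 ratios, 0.542 to 0.914, had intervals that overlap. The ratio of Hbb-bt to Hbb-bs reads ran from 0.0938 to 0.298.

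Slc4a1 had 0 reads in all 4 HSC and all 4 hepatocyte libraries, which allows up to 3 reads each. In ECs it had 7 and 0 reads (WT) and 3 and 11 reads (KO). In Kupffer cells it had 7 and 12 reads (WT) and 82 and 0 reads (KO). A single library, Kupffer cells KO 27, held most of them.

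The means of Alas2 kept the order of the globin means in the 3 sorted cell types. They were 27.2 ± 9.28 CPM in Kupffer cells, 21.3 ± 14.8 CPM in ECs and 11.8 ± 13.2 CPM in HSCs (SD, n = 4 each), with ranges that overlap. In hepatocytes, the cell type poorest in globin, Alas2 reached its highest levels of the series. The libraries labelled WT read 157 and 264 CPM, from 2466 and 3867 reads, and those labelled KO 25.6 and 17.9 CPM, from 397 and 266 reads. The WT hepatocyte libraries lay above all 14 other libraries, of which the highest read 36.4 CPM, while the KO hepatocyte libraries fell within the range of the Kupffer cells, 17.5 to 35.7 CPM.

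In ECs Alas2 read 30.8 and 36.4 CPM under the WT label and 12.9 and 4.94 CPM under the KO label. In HSCs it read 29.7 and 13.4 CPM against 1.04 and 2.84 CPM. In Kupffer cells it read 34.5 and 21.0 CPM against 17.5 and 35.7 CPM. The groups were apart in ECs, HSCs and hepatocytes, with WT above KO, and overlapped in Kupffer cells. Of all genes tested, 24.1% in ECs, 19.3% in HSCs and 23.2% in hepatocytes were apart in this direction. Within a sorted cell type the libraries did not always rank alike: EC library WT 34 had the lowest EC globin sum (88.5 CPM), and KO 46, at 135 CPM of globin, the lowest EC Alas2. HSC library KO 8 had more globin than KO 20 and less Alas2.

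Alas2 in hepatocytes therefore did not move with the globins. Between the labels, mean Alas2 was 9.67 times higher in WT hepatocytes, at a globin sum 0.893 times that under the KO label. In HSCs both quantities were 11.1 times higher under the WT label. In ECs Alas2 was 3.78 times higher and the globin sum 1.53 times, and in Kupffer cells the ratios were 1.05 and 1.13. The KO library with the highest hepatocyte globin sum, 41, had the lowest hepatocyte Alas2, and the WT library with the lowest globin sum, 33, had the highest.

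Counted as Alas2 reads per 1000 globin reads, the 12 libraries of the other cell types ran from 36.6 to 414. The hepatocyte libraries gave 21077 and 57716 (WT) and 5293 and 2078 (KO). The lowest of them, 2078 (95% interval 1677 to 2586), was 5.02 times the highest elsewhere, 414 (280 to 602) in HSCs KO 20. Per length of exon, the Alas2 level was 12.9, 38.6, 3.17 and 1.29 times that of Hbb-bs in the 4 hepatocyte libraries. In Kupffer cells the Hbb-bs level per length was 13.5 to 30.4 times that of Alas2.

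**Figure D2:**
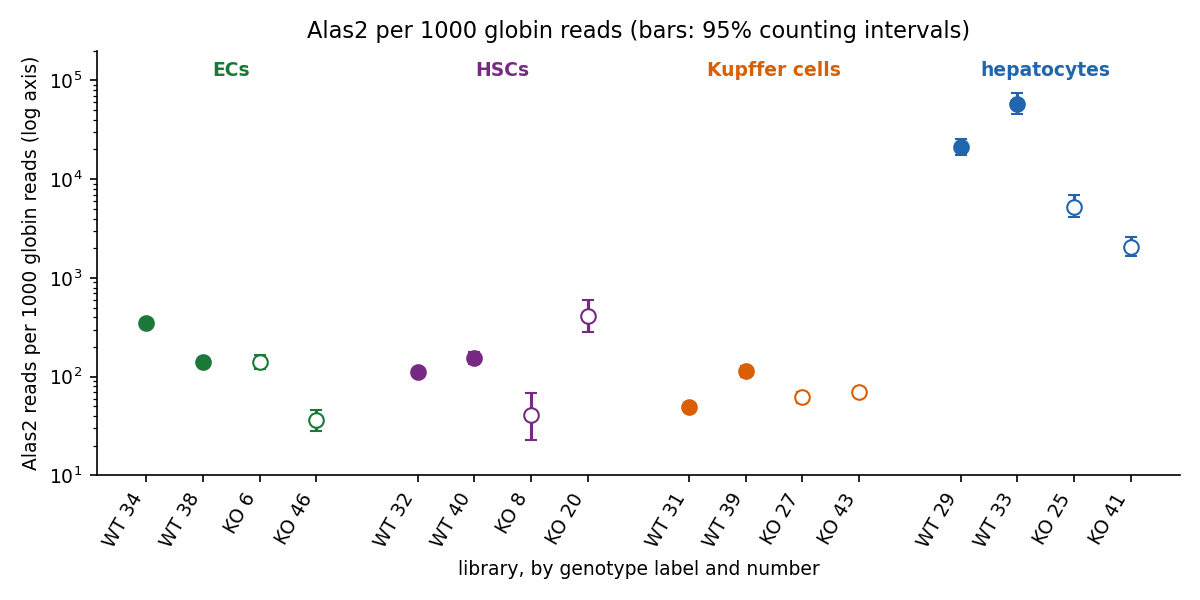
Alas2 reads per 1000 reads of the 4 globin genes (log axis) by library, with 95% counting intervals; filled symbols carry the WT label and open symbols the KO label. The lowest hepatocyte library stands at 2078, and the other 12 lie between 36.6 and 414.

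Over all 16 libraries, log2(CPM + 1) of Alas2 and of the globin sum had Pearson's r = -0.08; Alas2 ranked 10398 of 13823 genes by likeness to the globins. Over the 12 libraries without hepatocytes r was 0.81 (rank 26). Libraries of 1 cell type share their isolation and the points are not independent, so these are descriptions. The 5 genes most like the globin sum over 16 libraries were Gm43413, Emd, Ddx21, Zdhhc14 and Cxcr6 (r from 0.93 to 0.95), none of them from the erythroid lists. Cxcr6 encodes a chemokine receptor found on lymphocytes. The 5 most like Alas2 were Scd1, C8a, Hnf4a, Hc and Saa4 (r from 0.84 to 0.86); C8a and Hc encode complement proteins, Hnf4a a hepatocyte transcription factor and Scd1 a fatty acid desaturase.

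**Figure D3:**
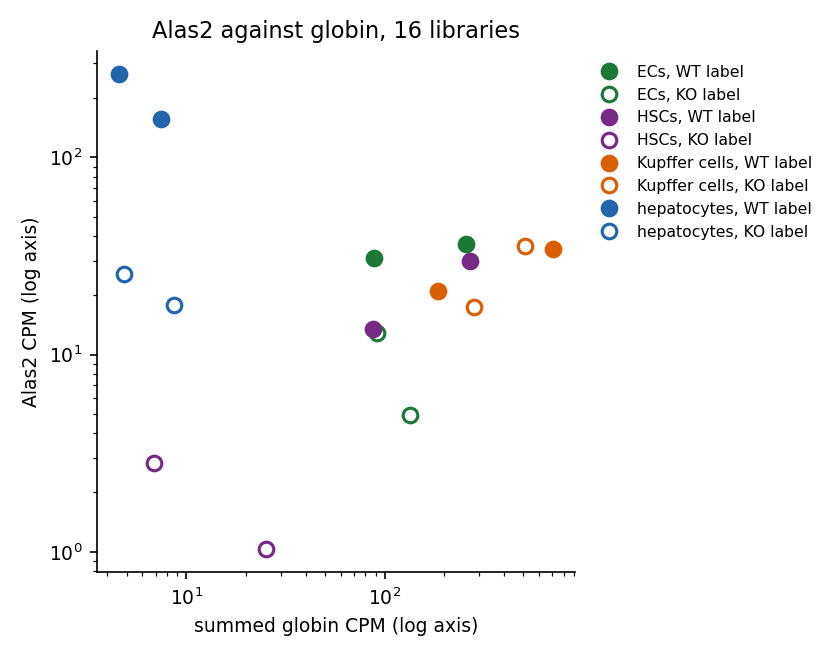
Alas2 against summed globin, both in CPM on log axes, for the 16 libraries; colours give the cell type and filled symbols the WT label. The hepatocyte points lie apart at the left, below 9 CPM of globin, with Alas2 from 17.9 to 264 CPM.

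Over the 12 libraries without hepatocytes, the genes most like Alas2 were Saa4, Hpx, Hp, H2-Q10 and Hnf4a (r from 0.93 to 0.95); Saa4, Hpx and Hp encode plasma proteins made by hepatocytes. Alas2 had r = 0.83 with the median hepatocyte marker level and the globin sum had r = 0.63 with it, on the same 12 libraries. The relation did not hold within every cell type. In Kupffer cells the marker level was 5.17% and 8.09% (WT) and 9.44% and 11.5% (KO), beside Alas2 at 34.5, 21.0, 17.5 and 35.7 CPM, and in HSCs labelled WT the library with more marker RNA, 40, had less Alas2. In hepatocytes the markers stood at 106% and 109% under the KO label, where Alas2 was lower. In ECs labelled WT, the hepatocyte marker share times the mean Alas2 of WT hepatocytes gave 23.3 and 48.3 CPM, beside 30.8 and 36.4 CPM read. In ECs labelled KO the same product, with KO hepatocytes, gave 0.578 and 0.425 CPM beside 12.9 and 4.94 CPM read. In Kupffer cells the product, with hepatocytes of the same label, gave 10.9 and 17.0 CPM (WT) beside 34.5 and 21.0 CPM read. Under the KO label it gave 2.06 and 2.51 CPM beside 17.5 and 35.7 CPM read. In HSCs it gave 6.42 and 14.8 CPM (WT) beside 29.7 and 13.4 CPM read. HSCs labelled KO had 0.119 and 0.266 CPM by this product beside 1.04 and 2.84 CPM read. The part of hepatocyte RNA in the Alas2 of these libraries was not tested.

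**Figure D4:**
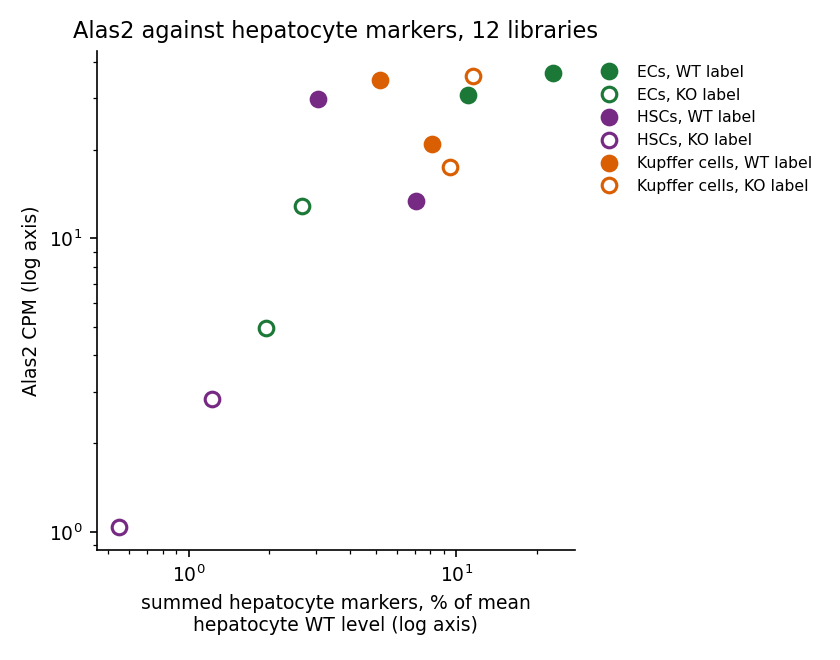
Alas2 in CPM against the level of 10 hepatocyte markers, on log axes for the 12 libraries of ECs, HSCs and Kupffer cells. The marker level is the median of the 10 genes' percent of their own mean in WT hepatocytes, although the axis label says summed. The 4 libraries below 3% are those of ECs and HSCs labelled KO, and they hold the 4 lowest Alas2 values.

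In the whole-table test between genotype labels (edgeR's quasi-likelihood test, Benjamini-Hochberg adjustment, threshold 0.05), none of the members was called in any cell type. This is no evidence about the choice of genes, which used the same libraries. In hepatocytes Alas2 had a log2 fold change of -3.23 (SE 0.36, KO minus WT, adjusted p = 0.478 by edgeR), the second of 11548 genes by p. No gene was called there (0%), although 821 passed an unadjusted p of 0.05, of the members only Alas2. DESeq2 called 30 genes in hepatocytes, 21 of them lower (0.160%), and Alas2 was first by p, with an adjusted p of 7.94e-20. Over the 9 alternatives to the edgeR fit, its adjusted p ran from 3.05e-24 to 0.819 and its log2 fold change from -3.60 to -2.74. It was called without KO library 25 (edgeR adjusted p = 0.00491) and in none of the fits that left out another library. Both KO libraries lay below both WT libraries for Alas2 alone of the 4 members tested, as they did for 23.2% of all genes tested.

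In HSCs the 4 tested members had log2 fold changes of -3.48 (SE 0.72) for Alas2, -3.72 (SE 0.74) for Hba-a1, -3.34 (SE 0.82) for Hbb-bs and -3.74 (SE 0.96) for Hbb-bt. Their edgeR adjusted p lay between 0.336 and 0.388, where 0% of 14390 genes were called and 1260 had an unadjusted p under 0.05, these 4 among them. DESeq2 called all 4, with 390 of 15076 genes lower (2.59%). Each of the 4 had both KO libraries below both WT libraries, as had 19.3% of genes tested. The hepatocyte marker list had a median log2 fold change of -2.41 in the same libraries, with 0 of 10 called, against 0.02 over all genes. EC markers were below 0 in 10 of 10 (median -1.20) and lymphocyte markers in 7 of 7 tested (median -0.74), with none called. Neutrophil markers were above 0 in 5 of 6 tested (median 1.43) and Kupffer cell markers in 7 of 10 (median 0.37). Platelet markers were above 0 in 1 of 3 tested (median -0.04), and none of these lists had a call. The part of other cells in the HSC differences was not tested. Without WT 32 the 4 log2 fold changes were -2.77, -2.76, -2.30 and -2.26, in the order above; without KO 8 those of the globins reached -4.70, -4.59 and -4.82, and without KO 20 that of Alas2 reached -4.46.

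In ECs Alas2 had a log2 fold change of -1.94 (SE 0.45, edgeR adjusted p = 0.111), and Hba-a1, Hbb-bs and Hbb-bt had -0.94, -0.37 and -0.27. edgeR called 2.08% of the 14631 genes and 0 of the 4 members, with Alas2 alone under an unadjusted p of 0.05; DESeq2 called Alas2 among the 5.51% that it called lower. Alas2 alone had both KO libraries below both WT libraries, beside 24.1% of genes tested. All 10 hepatocyte markers were lower there by edgeR, with a median log2 fold change of -2.94. Other lists moved either way without a call. Lymphocyte markers lay below 0 in 8 of 8 (median -1.29) and neutrophil markers in 6 of 6 tested (median -1.95). HSC markers lay below 0 in 10 of 10 (median -1.21). Kupffer cell markers lay above 0 in 10 of 10 (median 0.84) and platelet markers in 5 of 5 tested (median 0.58). The part of such cells in the EC differences was not tested. Without WT 38 the log2 fold changes of Hba-a1, Hbb-bs and Hbb-bt turned to 0.17, 0.44 and 0.45, and over the libraries left out in turn that of Alas2 ran from -2.69 to -1.43.

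In Kupffer cells the 5 tested members had log2 fold changes from -0.82 (Hbb-bt) to 2.02 (Slc4a1), the latter from 1 library. Without WT 31 those of Alas2, Hba-a1, Hbb-bs and Hbb-bt were 0.41, 1.23, 1.11 and 1.03, all above 0. edgeR called 0% of 13867 genes, with 706 under an unadjusted p of 0.05 and no member among them; DESeq2 called 78 genes and no member. None of the 5 had both KO libraries below both WT libraries, beside 16.1% of genes tested.

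The difference of the genotype effect between cell types was fitted for the 6 pairs of cell types. The fit took all libraries as independent, although cell types may share mice. None of the 30 tests of members passed after adjustment by edgeR, and 11 had an unadjusted p under 0.05. For Alas2 the effect in Kupffer cells exceeded that in hepatocytes by 3.07 on the log2 scale (SE 0.84, adjusted p = 0.450 by edgeR), and 0.0116% of genes were called for that pair. Alas2 in HSCs against Kupffer cells differed by -3.35 (SE 0.88, adjusted p = 0.114 by edgeR; 0.593% of genes called). For Hba-a1, HSCs against hepatocytes differed by -3.78 (SE 1.20, adjusted p = 0.361 by edgeR; 0.0755% called). No member passed for ECs against HSCs (0.0349% of genes called), ECs against Kupffer cells (2.06%) or ECs against hepatocytes (0.0697%).

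Alas2 had the most negative log2 fold change of the heme synthesis genes in hepatocytes; its difference from the others was not tested. Neither Alas2 nor any of the 12 other genes of the pathway was called by edgeR in any cell type. Of all genes tested, edgeR called 2.08% in ECs and 0% in the other cell types. In hepatocytes the log2 fold changes of the 12 ran from -1.28 to 0.90 with a median of 0.14. Alas1, the housekeeping synthase, read 178 and 148 CPM (WT) and 87.4 and 288 CPM (KO), so its groups overlapped. Fech, which inserts the iron, read 168 to 187 CPM (WT) and 181 to 185 CPM (KO). Slc25a39, a mitochondrial carrier with the highest level of the list, read 757 to 774 CPM (WT) and 782 to 875 CPM (KO). Alad, which follows the synthase in the pathway, read 254 to 298 CPM (WT) and 313 to 662 CPM (KO), with a log2 fold change of 0.90 (SE 0.40, edgeR adjusted p = 0.708). Abcb10, a mitochondrial transporter, read 30.5 to 47.7 CPM under the WT label and 10.4 to 20.5 CPM under the KO label. Its groups were apart like those of Alas2 and of 23.2% of all genes tested in hepatocytes. Its log2 fold change was -1.28 (SE 0.35, edgeR adjusted p = 0.700). Of the genes beside Alas2 on the chromosome, looked up after its values were seen, Apex2 read 3.87 to 8.54 CPM in hepatocytes and Pfkfb1, a hepatic glycolysis regulator, 30.0 to 37.2 CPM.

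**Figure D5:**
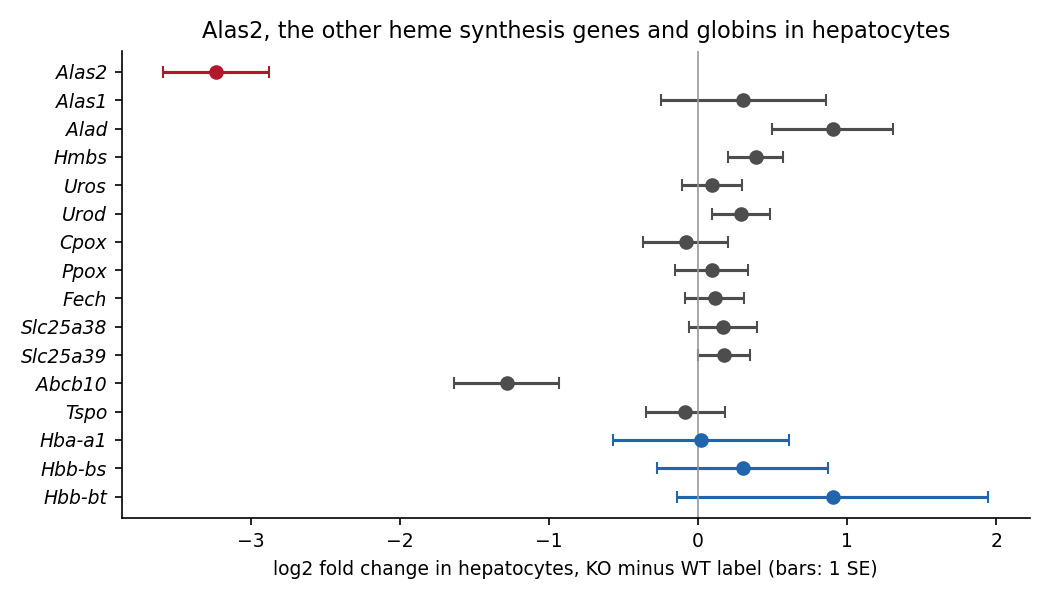
Log2 fold changes between the KO and WT labels in hepatocytes (edgeR, bars 1 SE, 2 libraries per label) of Alas2 in red, 12 other heme synthesis genes in grey and 3 globin genes in blue. Alas2 stands at -3.23, Abcb10 at -1.28, and the remaining genes between -0.08 and 0.90.

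Many of the other red cell genes had few reads. The 6 other globin genes, embryonic and theta-like, had 7 reads in all, 6 of Hbq1b in Kupffer cells WT 31 and 1 of Hba-x in HSCs WT 40. Of the 14 genes of the red cell membrane list, Aqp1 (a water channel) read 6345 to 10760 CPM in ECs, which use it too. Gypc (glycophorin C) read 78.2 to 192 CPM in ECs and 59.0 to 93.6 CPM in HSCs. Epor, the erythropoietin receptor, was highest in HSCs, at 170 to 277 CPM. No gene of the membrane list, of the 6 erythroid transcription factors or of the 15 other erythroid genes was called by edgeR in any cell type. Per cell type only 3 to 5, 2 to 3 and 8 to 10 genes of these lists were tested. Of all genes tested, 2.08% were called in ECs and 0% in the other cell types, so the lack of calls says little about these lists. Of those transcription factors Klf1, an activator of beta globin, read 1.84 to 7.48 CPM in hepatocytes and at most 1.45 CPM elsewhere, and Car1, a red cell carbonic anhydrase, read 4.96 to 11.7 CPM in hepatocytes and at most 2.31 CPM elsewhere. Gata1 had reads in only 2 libraries, ECs KO 46 with 18 and Kupffer cells KO 27 with 17.

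Kupffer cells KO 27 stood apart in the rarer red cell genes. Of the 28 genes of the erythroid lists, Slc4a1 included, with a median under 1 CPM, 23 had any read, and 18 of them had reads in this library, against 2 to 13 in each of the other 15. It held the only reads of Kel and Cldn13 (3 and 7), 7 of the 8 of Hemgn, 23 of Epb42 and the 82 of Slc4a1. Its globin sum, 281 CPM, was not high for its cell type. Neutrophil markers summed to 278 CPM there against 20.2 to 23.6 CPM in the other Kupffer cell libraries, and platelet markers to 140 against 37.8 to 69.6 CPM. The part of other blood or marrow cells in these reads was not tested. Without this library the KO label of Kupffer cells is left with 1 library of 0 Slc4a1 reads against 7 and 12, too few for a fold change.

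Of the 10 genes that handle spent heme and hemoglobin, 7 had their highest mean in Kupffer cells, which also had the highest mean globin, 2 in hepatocytes (Hp and Hpx) and 1 in HSCs (Lrp1). Hmox1 (heme oxygenase) read 2034 to 3141 CPM there and at most 297 CPM elsewhere. Cd163, the receptor for hemoglobin bound to haptoglobin, read 264 to 965 CPM and at most 37.8 CPM elsewhere, and Slc40a1, the iron exporter ferroportin, 1562 to 6455 CPM and at most 515 CPM elsewhere. edgeR called none of the 10 genes of this list in Kupffer cells, HSCs or hepatocytes, where it called 0% of all genes. In ECs, where edgeR called 2.08% of all genes, it called 3 of the 10 lower: Hp, Hpx and Lrp1. Their log2 fold changes were -2.85, -2.80 and -1.47. Hp and Hpx are plasma proteins made by hepatocytes, and all 10 hepatocyte markers were lower in the same libraries. Lrp1 averaged 888 CPM in HSCs, 126 CPM in hepatocytes and 43.4 CPM in ECs. The part of other cells in these 3 calls was not tested.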

How the data were processed

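The deposited files held raw HTSeq read counts per gene for 16 libraries, made by the authors from TruSeq stranded mRNA reads; per the labels' processing notes the tools were Trimmomatic 0.32, HISAT2 2.1.0 and HTSeq 0.9.1 with build GRCm38. The series text names Smart-seq2 instead, and the strand setting of the counting is not given in the sources used here. The 5 summary lines of the counter were left out of totals. The members and gene lists were chosen with earlier results of these data known. Levels are CPM over all gene rows. Genotype labels were compared within each cell type, 2 libraries against 2, with edgeR 4.0.16 (filterByExpr, TMM, quasi-likelihood test, Benjamini-Hochberg threshold 0.05) over all genes; differences between cell types were contrasts over 16 libraries. DESeq2 1.42.0, RLE factors, no filter, a common fit, totals without globin and leaving out each library were alternatives. Ratio intervals are exact binomial, at 95%. Likeness left out genes whose mean was under 1 CPM. Named besides the 6 members were list genes past the threshold or among the 3 highest of a list, and the 5 genes most like each target; Alas1, Fech, Abcb10, Hmox1, Cd163, Klf1, Car1, Gata1 and the rarer red cell genes were named after their values were seen. Positions are from GENCODE vM21.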

Additional observations from a re-analysis of the deposited data

How the results depend on the processing

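With 2 libraries per label the calls depended on the test. DESeq2 called 1 member in ECs, 4 in HSCs and 1 in hepatocytes, beside 6.39%, 2.7% and 0.229% of all genes. edgeR without a filter on low counts called 2, 4 and 1, beside 5.26%, 2.7% and 1.14% of all genes. A fit of all 16 libraries together called 1 in HSCs, beside 1.03% of all genes. None was called in the other settings that kept all libraries, nor in Kupffer cells in any. Leaving out 1 library gave 0 to 1 members in hepatocytes, the call being Alas2 without KO 25, and 0 in the other cell types. Without a filter 12 of the members' differences between cell types passed, beside 1.03% to 4.42% of all genes per pair of cell types. With RLE factors 0 passed, beside 0.0116% to 2.08% of all genes. Of 153 alternative fold changes of single members, 123 kept direction and call, 15 passed the threshold, and 15 reversed, all on leaving out 1 library. In ECs, Hba-a1 ranged from -1.54 to 0.17, Hbb-bs from -0.87 to 0.44 and Hbb-bt from -0.73 to 0.45, each reversed without WT 38. In Kupffer cells, Alas2 ranged from -0.81 to 0.41, Hba-a1 from -0.83 to 1.23, Hbb-bs from -1.005 to 1.11, Hbb-bt from -1.62 to 1.03 and Slc4a1 from -6.24 to 3.01; the first, without KO 27, sets 0 reads against 7 and 12, depends on the prior count and is no estimate. In HSCs, Alas2 ranged from -4.46 to -2.77, Hba-a1 from -4.70 to -2.76, Hbb-bs from -4.59 to -2.30 and Hbb-bt from -4.82 to -2.26, with no reversal. In hepatocytes, Hba-a1 ranged from -0.47 to 0.40 and Hbb-bs from -0.22 to 0.71. The mean globin sum of hepatocytes was 11.9 CPM with TMM totals, and that of HSCs 39.7 CPM without WT 32. With alpha globin reads alone as denominator, Alas2 per 1000 reads averaged 409 for ECs, 464 for HSCs, 48933 for hepatocytes and 175 for Kupffer cells (127 with beta reads alone), as fewer reads divide it. Over all 4 globin genes the means were 167, 180, 73.6 and 21541, and they became 107 in ECs without WT 34, 102 in HSCs without KO 20 and 9483 in hepatocytes without WT 33. Within a cell type no paired analysis was possible, because the WT and KO groups share no replicate numbers. Across cell types the libraries may share mice, which the labels do not state. The fits over 16 libraries took them as independent and left out any such pairing. Depth limits the hepatocyte globins, at 3 to 66 reads a gene, and Hba-a2 and Slc4a1, near 0.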
